A study of Camelus dromedarius with 4 samples.

Results

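The enzymes of glycolysis and of the citric acid cycle were examined in the supraoptic nucleus of the dromedary camel in winter and in summer. A set of 37 genes was chosen by symbol and not by their values, though earlier results of these data were known. All 37 were listed, among 16053 gene symbols with a season mean in the authors' table, and all 37 reached 10 normalized counts in the mean of a season. The set held 14 genes of glycolysis, 2 of lactate dehydrogenase, 5 of the pyruvate dehydrogenase complex, and 16 of the citric acid cycle with pyruvate carboxylase.

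Total RNA of the supraoptic nucleus was sequenced in 2 winter and 2 summer libraries. All animals were healthy, age-matched adult males of the Tergui breed and neither a drug nor a genetic change is given, so that season was the labelled difference between the groups. The winter and summer animals were slaughtered in different towns, and season, place and individual cannot be told apart. The comparison asks whether transcripts of this nucleus, whose magnocellular neurones make vasopressin and oxytocin for release into the blood, differ with season.

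Glycolysis splits glucose to pyruvate in the cytosol. Pyruvate is reduced to lactate by lactate dehydrogenase, or enters the mitochondrion, where the pyruvate dehydrogenase complex turns it into acetyl-CoA for oxidation in the citric acid cycle. In brain, astrocytes are known for a high glycolytic rate and for the carboxylation of pyruvate, which refills the cycle, and neurones for their dependence on oxidative metabolism.

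The libraries held 4379162 to 6902037 reads on gene models, which was 20.7 to 27.8% of the reads tallied. The count files name no genes, so named genes were taken from the authors' table of season means, each the mean over the libraries of a season of read counts divided by a size factor (normalized counts). Since a mean is a sum of whole reads, each worth a fixed step in its library, the reads of both libraries were recovered by solving each mean for a pair of whole numbers. The libraries are called A (size factor 1.33 in winter, 0.922 in summer) and B (0.946 and 0.877), because the means do not name the replicate. Large means have several solutions. The summer reads had a single solution for 27 of the 37 enzymes and the winter reads for 5. Where there were several, every solution was kept, and groups were said not to overlap only where each solution agreed.

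The tissue label was checked against marker genes. The vasopressin gene, listed as a putative AVP, had a mean of 11822 in summer and 2560 in winter, and OXT, the oxytocin gene, had 592 and 621. PDYN, the prodynorphin gene of these neurones, and OTP and SIM1, factors of their lineage, had single solutions in both seasons. They lay far apart between winter libraries A and B (PDYN 63.4 and 8.46, OTP 79.2 and 21.2, SIM1 63.4 and 13.7 normalized counts), and closer in summer (128 and 127, 41.2 and 37.6, 48.8 and 63.8). Neurone markers (4 with a mean) summed to 2528 in summer and 3912 in winter, and all 4 were higher in winter. Astrocyte markers summed to 26109 and 15497, most of it from GFAP, and 3 of 6 were higher in winter. Oligodendrocyte markers (33309 and 36989), microglial markers (2025 and 1741), endothelial markers (800 and 843), red cell markers (318 and 290) and ependymal markers (48.7 and 72.5) were also present. No marker with a mean was at 0, and their part in the results on the enzymes was not tested. In such bulk tissue, fewer cells of a type and less RNA per cell cannot be told apart.

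Most enzymes had close season means. A season difference of more than 1.5-fold was found in 3 of the 37 (8.11%), against 22.3% of the 13808 symbols whose mean reached 10 in a season, and against 7.79% of the 3057 symbols whose summer means lay between the quartiles of the enzymes (208 and 543). HK1 was higher in winter, and HK2 and LDHA were higher in summer. HK2 alone passed 2-fold, as did 7.26% of all symbols. The winter mean was the higher one in 22 enzymes (59.5%, against 46.2% of all symbols) and the lower one in 15. The median log2 ratio of winter to summer was 0.07 over the enzymes and -0.04 over all symbols. By step it was 0.17 in glycolysis (10 higher in winter, 4 in summer), -0.45 in lactate dehydrogenase (0 and 2), 0.16 in the pyruvate dehydrogenase complex (4 and 1), and 0.01 in the citric acid cycle (8 and 8), where it was -0.02 on scaling to the season totals.

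**Figure D1:**
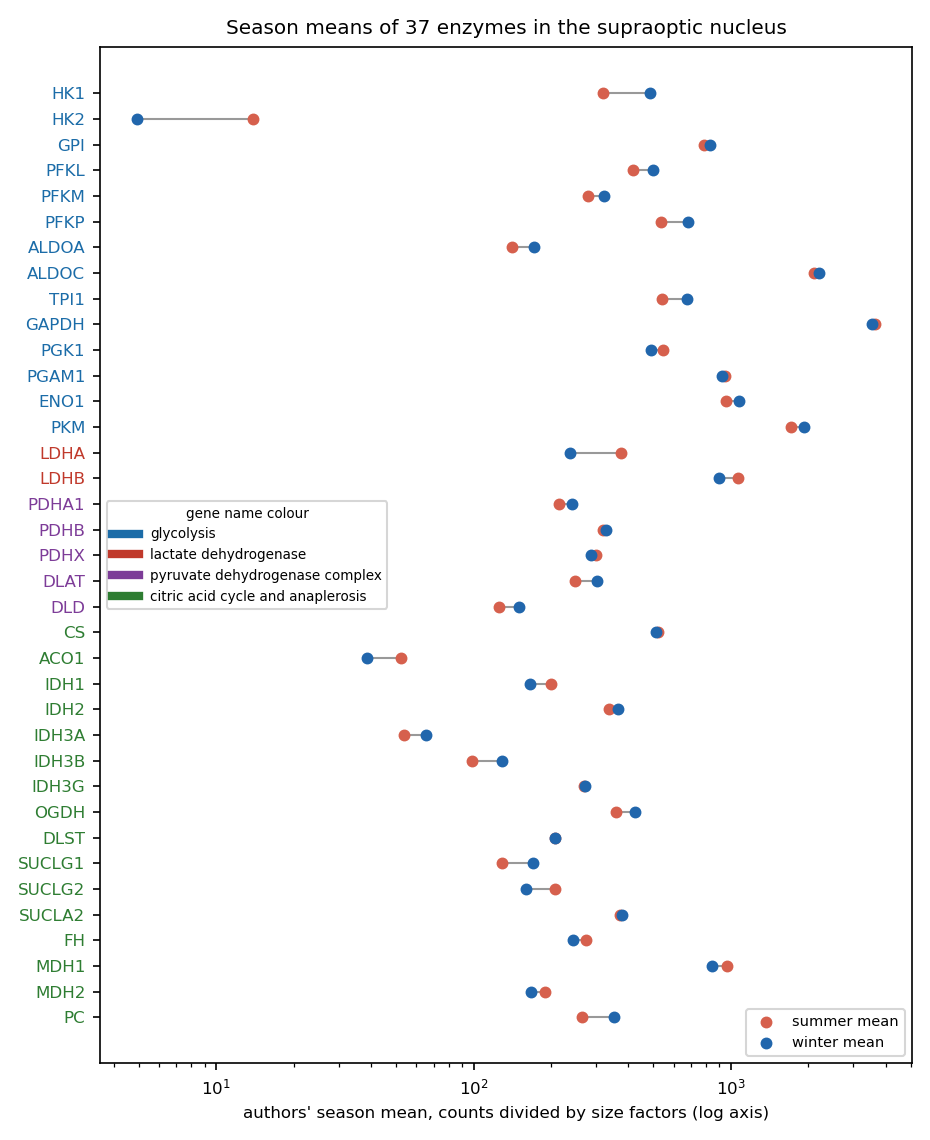
Season means of the 37 enzymes in normalized counts on a log axis, with summer in red, winter in blue and a grey line between them; each point is the authors' mean of 2 libraries, with no error bar. The lines of HK1, HK2 and LDHA are the 3 that span more than 1.5-fold, and HK2 has the lowest means, at 13.9 in summer and 4.91 in winter.

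The first step of glycolysis is the phosphorylation of glucose by hexokinase. HK1, the form typical of brain, had a mean of 318 in summer and 485 in winter (log2 ratio 0.61, or 1.53-fold). Its summer libraries held 269 (A) and 367 (B) normalized counts. The winter mean had 3 solutions, at 827 and 144, 687 and 283, or 548 and 423 normalized counts in A and B, and in 1 of the 3 winter was the higher group in every library. With edgeR's quasi-likelihood test, the unadjusted p of HK1 ran from 0.164 to 0.418 over these solutions.

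HK2, the inducible form known from muscle and fat, went the other way. It had 6 and 5 reads in winter, and 13 and 12 reads in summer, in libraries A and B. As normalized counts these were 4.53 and 5.29 in winter, and 14.1 and 13.7 in summer. Both summer libraries were higher than both winter libraries, and within a season they lay close together. HK2 was the one enzyme whose mean reached 10 in summer alone, so it entered the fit through the season in which it was high. The season mean was 2.83-fold higher in summer (log2 ratio of winter to summer -1.50, counting error 0.52). With edgeR's quasi-likelihood test the log2 fold change was -1.49 (SE 0.86), with an unadjusted p of 0.123 and an adjusted p of 0.982.

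GPI, the isomerase that follows hexokinase, had means of 785 in summer and 831 in winter. The 3 phosphofructokinase genes encode the subunits of the main controlled step, and all 3 had the higher mean in winter. PFKP, the platelet form, had 537 in summer and 682 in winter (log2 ratio 0.34, unadjusted p 0.678 to 0.834 over 12 solutions in edgeR's quasi-likelihood test). PFKL, the liver form, had 418 and 499, and its summer libraries lay apart at 294 (A) and 541 (B). PFKM, the muscle form, had 279 and 321, with 219 (A) and 340 (B) in summer. For all 4 of these genes the groups overlapped in every solution.

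Aldolase splits the phosphorylated sugar. ALDOA, the widespread form, had 240 (A) and 105 (B) normalized counts in winter, and 126 and 157 in summer. The winter libraries lay on both sides of the summer libraries, with A the higher. Winter A was also higher for PDYN, OTP, SIM1 and some markers of other cell types, whose part was not tested. The log2 fold change was 0.29 (SE 0.44, unadjusted p 0.526, adjusted p 0.982, edgeR's quasi-likelihood test). ALDOC, the brain form found in astrocytes, had means of 2098 in summer and 2203 in winter (log2 ratio 0.07, unadjusted p 0.919 to 0.982 over the solutions fitted). TPI1, which interconverts the triose phosphates, had 543 and 677 (log2 ratio 0.32). Its summer libraries held 402 (A) and 683 (B), on both sides of the winter mean.

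In the lower part of the pathway, which yields ATP and NADH, the means differed little. GAPDH, the oxidising step, had 3641 in summer and 3543 in winter (log2 ratio -0.04, unadjusted p 0.953 to 0.992 over the solutions fitted in edgeR's quasi-likelihood test). PKM, the last step, which makes pyruvate, had 1719 and 1930 (log2 ratio 0.17, unadjusted p 0.767 to 0.958). These 2 and ALDOC had the largest counts of the enzymes. PGK1, an ATP-forming step, had 543 and 488 (log2 ratio -0.15), and PGAM1, which moves the phosphate group, had 951 and 925 (-0.04). ENO1, the widespread enolase, had 961 and 1076 (0.16). Processed copies of several of these genes, GAPDH among them, are common in mammalian genomes, and reads shared with such copies were not measured.

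Lactate dehydrogenase is a tetramer of the subunits LDHA, which prevails in glycolytic tissue, and LDHB, which prevails in oxidative tissue. LDHA had a mean of 374 in summer and 237 in winter (log2 ratio -0.66, or 1.58-fold higher in summer). Its summer libraries held 466 (A) and 282 (B) normalized counts. The winter mean had 3 solutions, at 378 and 96.2, 238 and 236, or 98.9 and 375 in A and B. In the even solution winter lay wholly below summer, and in the others the groups overlapped. The unadjusted p in edgeR's quasi-likelihood test ran from 0.129 to 0.325, and 0.129 was the lowest of any enzyme with several solutions. LDHB had 1063 in summer and 898 in winter (log2 ratio -0.24), and its solutions did not settle whether the groups overlap. The sum of both subunits was 1437 in summer and 1136 in winter, and LDHA made up 26.0% of it in summer and 20.9% in winter.

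The 5 genes of the pyruvate dehydrogenase complex stayed within 1.5-fold. PDHA1 and PDHB encode the subunits of the decarboxylase, with 216 and 320 in summer against 241 and 328 in winter (log2 ratios 0.16 and 0.04). DLAT, the acetyl-transferring core, had 248 and 301 (0.28). Its summer libraries, at 264 (A) and 233 (B), both lay below the winter mean. DLD, the dehydrogenase shared with the oxoglutarate complex, had 126 and 150 (0.26), with 145 (A) and 106 (B) in summer. PDHX, which anchors DLD to the core, had 299 and 287 (-0.06).

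In the citric acid cycle 8 of the 16 genes had the higher mean in winter and 8 in summer, and 0 passed 1.5-fold. CS, the citrate synthase that opens the cycle, had the most even summer libraries of the 27 enzymes with a single summer solution, at 520.5 (A) and 519.8 (B), and means of 520.1 in summer and 512 in winter. ACO1, the cytosolic aconitase, which also binds RNA when it lacks its iron-sulphur cluster, had 38 and 46 reads in winter, and 67 and 28 reads in summer. As normalized counts these were 28.7 and 48.7 in winter, and 72.7 and 31.9 in summer. The values of the seasons alternated, so that the groups overlapped, and the log2 fold change was -0.46 (SE 0.57, unadjusted p 0.439, adjusted p 0.982, edgeR's quasi-likelihood test).

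The NAD+-dependent isocitrate dehydrogenase of the cycle has the subunits IDH3A, IDH3B and IDH3G. IDH3B had 151 (A) and 108 (B) normalized counts in winter, from 200 and 102 reads, and 96.5 and 101 in summer, from 89 reads in each library. Both winter libraries were higher than both summer libraries, the nearer ones by a small margin. The log2 fold change was 0.39 (SE 0.35, unadjusted p 0.291, adjusted p 0.982, edgeR's quasi-likelihood test). IDH3A, the catalytic subunit, had 103 (A) and 27.5 (B) in winter, on both sides of the 47.7 and 59.3 of summer, with a log2 fold change of 0.32 (SE 0.61, unadjusted p 0.616). Winter library A was again the one with more PDYN, OTP and SIM1, but some markers of other cell types were also higher in it. Among these were ALDH1L1 of astrocytes (212 in A and 76.1 in B) and CLDN5 of endothelium (98.9 and 56.1). RBFOX3 of neurones, SLC1A3 of astrocytes and CSF1R of microglia were higher in library A too. AQP4 of astrocytes and FOXJ1 of ependyma were higher in it at low counts, and CDH5 of endothelium by little. The microglial markers thus differed in direction, since AIF1 of microglia (89.0 and 136) was lower in library A. PECAM1 of endothelium (49.0 and 70.9) was also lower in library A. So were RSPH1 of ependyma (67.2 and 74.0) and HBB of red cells (37.7 and 113). The part of these cell types was not tested. IDH3G had 268 in summer and 272 in winter (log2 ratio of the means 0.02), with 200 (A) and 337 (B) in summer. Of the NADP+-dependent forms, the cytosolic IDH1 had 199 and 166 (-0.26, unadjusted p 0.465 to 0.791) and the mitochondrial IDH2 had 338 and 364 (0.11).

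The oxoglutarate dehydrogenase complex follows. OGDH, its decarboxylase, had 359 in summer and 426 in winter (log2 ratio 0.25), and DLST, its core, had 208 and 207 (-0.01). Succinyl-CoA ligase pairs a common subunit, SUCLG1, with SUCLG2 (GTP-forming) or SUCLA2 (ATP-forming). SUCLG1 had 129 in summer and 170 in winter (0.40, unadjusted p 0.259 to 0.570 in edgeR's quasi-likelihood test), and 1 of its 2 solutions placed both winter libraries above the summer libraries. SUCLG2 had 208 and 161 (-0.37, unadjusted p 0.318 to 0.629), and SUCLA2 had 371 and 378 (0.03). The partner subunits thus had season ratios of different sign, each within the overlap of the libraries in at least 1 solution.

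FH, the fumarase, had 274 in summer and 243 in winter (log2 ratio -0.18). Its summer libraries lay close together at 270 (A) and 278 (B), and 1 of 2 winter solutions, at 263 and 222, was below both. Malate dehydrogenase closes the cycle. The cytosolic MDH1 had 970 and 849 (-0.19) and the mitochondrial MDH2 had 189 and 167 (-0.18). PC, the pyruvate carboxylase that refills the cycle and is known in brain from astrocytes, had 263 and 352 (0.42, unadjusted p 0.473 to 0.609 in edgeR's quasi-likelihood test), the largest log2 ratio above 0 after HK1. Its summer libraries held 137 (A) and 390 (B), so the winter mean lay between them.

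**Figure D2:**
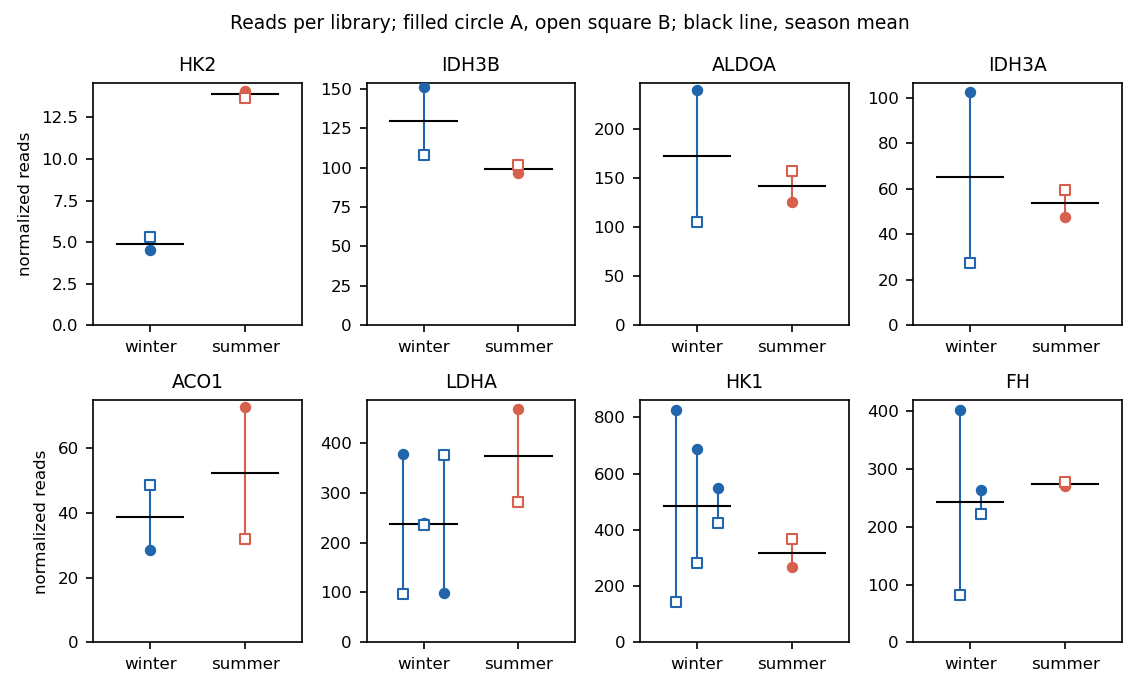
Normalized reads of 8 enzymes in winter (blue) and summer (red), with library A as a filled circle, library B as an open square and the season mean as a black line; where a season has several solutions, each is drawn as a joined pair. HK2 and IDH3B are the 2 genes whose groups are apart in every solution, while the winter libraries of ALDOA and IDH3A lie on both sides of summer, and the even winter solutions of LDHA and FH lie below summer.

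Over all 37 enzymes, the libraries of the seasons did not overlap in every solution for 2 genes (HK2 and IDH3B), overlapped in every solution for 22, and were not settled for 13. Among the 7642 symbols with a single solution in both seasons and a season mean of 10 or more, 30.5% did not overlap, 13.3% with winter and 17.2% with summer higher. The 2 genes are 2 of the 5 enzymes with a single solution. With 2 libraries against 2, no exact permutation test (two-sided) can give a p below 0.333. In edgeR's quasi-likelihood test on the 7642 symbols, 0 of the 5 enzymes passed 0.05 by the adjusted p and 0 by the unadjusted p, against 0% and 1.99% of the symbols. DESeq2 and edgeR's exact test gave 0 and 0 for the 5 as well. The other 32 were each fitted at their solutions (every solution for 29, and 500 for ALDOC, GAPDH and PKM), and 0 had an unadjusted p under 0.05 in any. Their lowest adjusted p was 0.981. The common biological coefficient of variation was 0.460. It measures the spread between the libraries of a season, which may be technical in part. The paper counts 2 camels in each season for RNA sequencing, while nothing in the labels ties a library to an animal. Counting error on the log2 ratios was 0.03 to 0.22 outside HK2, with a median of 0.08 over the 37.

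The summer libraries often differed more from each other than the season means did. These are unlike measures, because single libraries vary more than means of 2 libraries. A larger gap between the summer libraries therefore does not by itself show an unusual spread in summer. Among the 27 enzymes with a single summer solution, 9 (33.3%) had more than 1.5-fold between the summer libraries, against 43.0% of 11832 symbols, and the summer gap was larger than the season difference in 19 (70.4%), against 67.0%. Library A was the higher one in 13 (48.1%, against 46.0%) and B in 14. PC had the widest gap, at 137 in A and 390 in B (log2 ratio of A to B -1.51). OGDH (249 and 468, -0.91), PFKL (-0.88), TPI1 and IDH3G (both -0.76), IDH2 (262 and 413, -0.65) and PFKM (-0.63) were also lower in A. ACO1 (1.19) and LDHA (0.73) were higher in A by more than 1.5-fold, and IDH1 (232 and 166, 0.48), DLD (0.45) and SUCLG2 (238 and 178, 0.42) by less.

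By step, 5 of 6 glycolytic genes were lower in summer library A (median log2 ratio of A to B -0.54), and 4 of 5 genes of the pyruvate dehydrogenase complex were higher in it (median 0.18). The median of all symbols was -0.07. In library A, all 3 neurone markers with a single solution (median -1.33) and all 4 astrocyte markers (median -1.16) were also lower, and both microglial markers were higher (median 0.95). Markers of magnocellular neurones (2 of 3 higher in A, median 0.02) and of endothelium (3 of 5, median 0.09) were near even. The part of these cell types in the gap was not tested. The winter mean lay between the summer libraries for 12 of the 27 enzymes, above both for 8 (HK1, ALDOA, PDHA1, DLAT, DLD, IDH3A, IDH3B and SUCLG1) and below both for 7 (HK2, LDHA, CS, IDH1, SUCLG2, FH and MDH2). With summer library B as the summer value, 1 of the 27 passed 1.5-fold, which was HK2. With summer library A, 8 did, 5 of them higher in winter. For these counts of the 27 the shares of all symbols were not computed. Whether they are particular to the enzymes is therefore not known. HK2 had a log2 ratio of -1.48 against B and -1.52 against A, LDHA -0.25 and -0.98, HK1 0.40 and 0.85, and PC -0.15 and 1.36. The season ratio of HK2 thus depended little on which summer library was used, and that of PC turned.

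**Figure D3:**
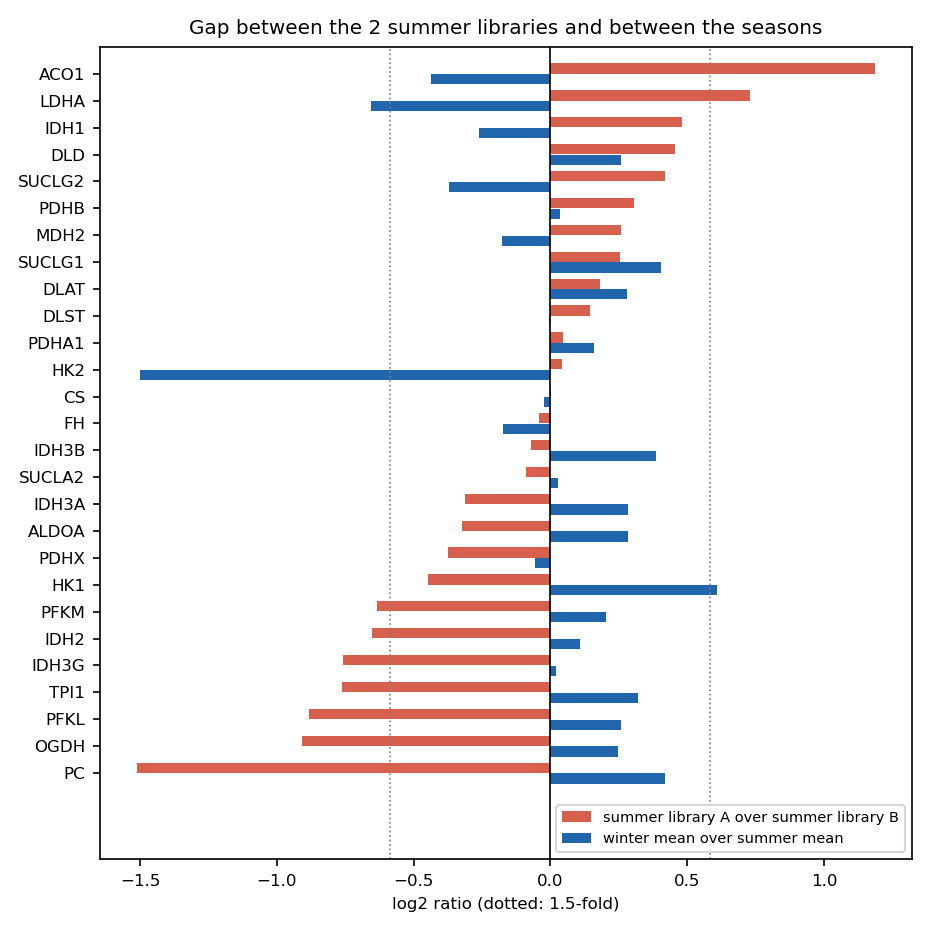
Log2 ratio of summer library A to B (red bars) and of winter to summer means (blue bars) for the 27 enzymes with a single summer solution, ordered by the former, with dotted lines at 1.5-fold. In 19 of the 27 the red bar is the longer one, and HK2 shows the reverse, with a short red and a long blue bar.

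Within sets of isoenzymes or subunits, shares of the summed counts were compared between the seasons. The counts are not corrected for transcript length, so a share can be read against the same share in the other season, not as a molar share. HK2 made up 4.18% of the hexokinase counts in summer and 1.00% in winter, a difference of -2.11 in the log2 ratio of HK2 to HK1. In the summer libraries its share was 4.98% (A) and 3.59% (B). IDH1 made up 37.1% of the NADP+-dependent isocitrate dehydrogenase counts in summer and 31.4% in winter, but 46.9% and 28.7% in summer libraries A and B, a wider gap than that between the seasons. SUCLG1 made up 18.2% of the succinyl-CoA ligase counts in summer and 24.0% in winter, above both summer libraries (19.0% and 17.3%). SUCLG2 had 29.3% in summer and 22.7% in winter, below both summer libraries (32.2% and 26.2%), while the sum of the 3 subunits was 708 and 709. These winter shares are of season means. Those of single winter libraries are not settled, since SUCLG1 held 295 (A) and 45.5 (B) or 155 and 185. IDH3B had 23.5% of the IDH3 counts in summer and 27.7% in winter, with 28.1% and 20.4% in summer libraries A and B. The shares of PFKP (43.5% and 45.4%), ALDOA (6.32% and 7.26%) and MDH1 (83.7% and 83.5%) differed by less. These shares have no test.

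Of 70 other genes of the pathway, 60 reached a season mean of 10. More than 1.5-fold between the seasons was found in 15 of the 60 (25.0%, against 22.3% of all symbols), 9 with winter and 6 with summer higher (10.1% and 12.2% of all symbols), and their median log2 ratio was -0.07. Of 25 with a single solution in both seasons, 0 had an adjusted p and 0 an unadjusted p under 0.05 in edgeR's quasi-likelihood test. The seasons did not overlap in 11 of the 25 (44.0%, against 30.5% of all symbols), 5 with winter and 6 with summer higher.

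Among regulators of pyruvate dehydrogenase, PDP2, a phosphatase that activates the complex, had 48.3 (A) and 49.7 (B) normalized counts in winter, and 26.0 and 19.4 in summer. Both winter libraries were higher, with a log2 fold change of 1.10 (SE 0.52, unadjusted p 0.0699, adjusted p 0.982, edgeR's quasi-likelihood test). PDK2, a kinase that inactivates the same complex, had means of 204 in summer and 372.5 in winter (log2 ratio 0.87), and 2 of its 3 solutions placed both winter libraries above summer. Its unadjusted p ran from 0.0355 to 0.243, and its adjusted p was 0.982 in each solution of edgeR's quasi-likelihood test. The other kinases had log2 ratios of 0.10 (PDK1), -0.36 (PDK3) and -0.47 (PDK4), and the phosphatase PDP1 had 0.39. The kinases thus held genes with ratios on both sides of 0, while PDP1 and PDP2 were both above 0. PFKFB1, which sets the level of an activator of phosphofructokinase, had 15.1 and 12.7 in winter, below the 26.0 and 31.9 of summer (log2 ratio -1.06).

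Succinate dehydrogenase links the cycle to the respiratory chain. Its catalytic subunits SDHA and SDHB had log2 ratios of 0.02 and -0.16. The membrane anchors SDHC and SDHD had lower winter means, 47.2 in summer and 31.7 in winter for SDHC (-0.57), and 21.4 and 9.14 for SDHD (-1.23). For both anchors the groups did not overlap, as in 30.5% of the 7642 symbols compared. SDHC had 31.7 and 31.7 in winter, and 49.9 and 44.5 in summer. SDHD had 9.81 and 8.46 in winter, and 32.5 and 10.3 in summer, so its season difference lay mostly in summer library A. The unadjusted p values were 0.268 and 0.191 in edgeR's quasi-likelihood test. SDHC was within 1.5-fold and was named after its values were seen.

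Of glucose carriers, SLC2A1 and SLC2A3, the main glucose carriers of brain vessels and neurones, had log2 ratios of -0.09 and -0.08. SLC2A4, the insulin-responsive carrier, had 13.0 and 7.98 in summer, and 5.28 and 0 in winter (log2 ratio of the means -1.99, from 12 and 7 reads against 7 and 0, where 0 allows up to 3 reads by counting error). GYS1, a glycogen synthase, had 118 in summer and 202 in winter (0.78, unadjusted p 0.0454 to 0.266, adjusted p 0.982), and PYGB, the brain glycogen phosphorylase, had 682 and 1035 (0.60, 0.240 to 0.717), both by edgeR's quasi-likelihood test. Further genes past 1.5-fold had low means. The muscle mutase PGAM2 (9.47 in summer and 17.5 in winter), the lactate exporter SLC16A3 (14.7 and 24.9) and the mitochondrial PCK2 (6.21 and 15.8) had higher winter means. For SLC16A3 the libraries overlapped, with 4.34 (A) and 25.1 (B) in summer, and 39.2 and 10.6 in winter. HK3 (13.3 and 6.34) and the gluconeogenic FBP1 (37.1 and 20.7) were higher in summer.

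**Figure D4:**
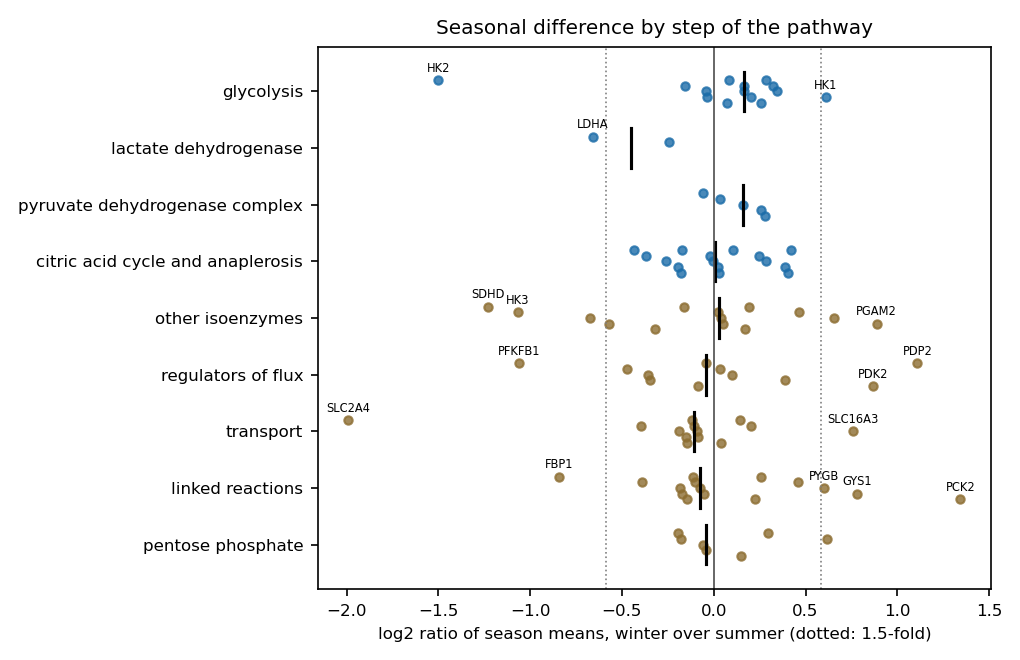
Log2 ratio of season means, winter over summer, for the 37 enzymes by step (blue) and for 60 other genes of the pathway by class (brown), with the median of each row as a black bar and dotted lines at 1.5-fold. Past 1.5-fold lie 3 of the 37 enzymes and 15 of the 60 others, of which those described in the text are named, and the medians of all rows but lactate dehydrogenase lie within 0.17 of 0.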

How the data were processed

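RNA of 4 supraoptic nuclei, grouped by season from the labels, was rRNA-depleted and made into stranded libraries. The authors mapped reads to their own assembly with TopHat (version not given in the sources used here) and deposited raw HTSeq read counts for 64989 gene models. Their deposited table gives a signal per gene symbol, a mean over each season's libraries after division by DESeq size factors, to 6 significant digits. It also holds edgeR fold changes and p-values, which were not used. Whether counting used strand is not given in the sources used here, and reads shared by related genes were not measured. The count files hold no names and could not be matched to the table, so the design's tests on named genes used recovered reads.

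Each mean was solved for whole reads in both libraries at the steps that 1 read is worth. All of 16049 symbols were solved (4 listed more than once were left out), and 9883 had a single solution in both seasons. Single solutions favour low means. For 7642 symbols whose mean reached 10 in winter or summer, reads were compared between seasons by edgeR 4.0.16 (R 4.3.3, glmQLFit with legacy set to FALSE, glmQLFTest, the size factors of the steps) with Benjamini-Hochberg adjustment over all of them, and enzymes with several solutions were fitted at each, up to 500, within the same table. Log2 ratios of means used no pseudocount. Alternatives were TMM and RLE factors, DESeq2 1.42.0, edgeR's exact test, other scalings, filters and folds, and leaving out each library. The scripts were tested on simulated data. The enzymes, the other lists and the markers were chosen with earlier results of these data known, so no list was tested. Full statistics were given for enzymes with single solutions, for the 5 largest ratios each way, for the 3 largest means and for groups that did not overlap, and values of the other pathway genes for those past 1.5-fold, apart from some that are not reported here. Of the enzymes' symbols, 34 are RefSeq symbols of another dromedary assembly, and ALDOA, ENO1 and LDHA are not. No positions are given. PDHA2, BRP44, BRP44L, PCK1, PFKFB2, BPGM and ME2 had no mean. Figures were drawn with matplotlib 3.10.9.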

Additional observations from a re-analysis of the deposited data

How the results depend on the processing

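The count of enzymes past 1.5-fold was 3, and was 1 at 2-fold. It was 3 with ratios centred on the median of all symbols or without a filter, and 2 with scaling to season totals, where HK1 came under 1.5-fold. Among the 27 enzymes with a single summer solution it ranged from 1 (without summer library A) to 8 (without summer library B), an alternative chosen after seeing the data. The share of all symbols was not computed for this alternative. Centring turned the log2 ratios of CS and DLST, and season totals turned those of IDH3G and SUCLA2. These scalings moved all ratios by 0.04 and 0.03. The medians of glycolysis, lactate dehydrogenase and the pyruvate dehydrogenase complex kept their sign under each scaling and with a pseudocount of 1. On leaving out each library in turn, fitted log2 fold changes ranged from -0.43 to 0.76 for ALDOA and from -0.96 to 0.94 for IDH3A (without winter library A and B), and from -0.92 to 0.26 for ACO1 (without summer library B and A). The causes were not tested. HK2 and IDH3B kept their sign under these fits, which was fixed in advance because their libraries do not overlap between the seasons. Their fitted log2 fold changes without winter library A and B were -1.37 and -1.59 for HK2, and 0.12 and 0.61 for IDH3B. The count of enzymes that did not overlap was 2 with total recovered counts. With single solutions alone it could not differ, since both genes have single solutions. These were the alternatives run for that count. The count past an adjusted p of 0.05 was 0 of 5 in all fits, while over the 7642 symbols it was 0, or 1 with DESeq2 and with the exact test, and 258 and 226 without summer library A and B. No paired analysis was possible, because the paper gives a separate slaughter date and town for each season, and replicate numbers mark no pairs. With 2 libraries a season, at 4379162 to 6902037 reads, the number of libraries limits every difference, and counting error was largest for HK2.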
